A study of Gallus gallus with 24 samples.

Results

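The genes described here are the WNT ligands and the genes that receive, restrain or feed back on WNT signals in cultured chick retinal pigment epithelium. They were picked by symbol, with earlier results of these data known. They are the WNT ligands, the Frizzled receptors (FZD) with LRP5, LRP6, ROR1 and ROR2, and the secreted antagonists (DKK, SFRP, FRZB and WIF1). The R-spondins (RSPO) with their LGR receptors and the ligase ZNRF3 are included, and so is a group of intracellular and feedback genes. Of 24356 listed genes 57 matched: 19 ligands, 12 receptors, 8 antagonists, 8 genes of the R-spondin axis and 10 intracellular or feedback genes. No listed gene carried the symbol RNF43, NKD2 or FZD5, which the rule would also take.

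Retinal pigment epithelium (RPE), the pigmented layer behind the retina, was cut as explants from specific pathogen free chicken embryos at embryonic day 4. Explants stayed for 24 or 48 h in maintenance medium alone (control), with fibroblast growth factor 2 (FGF2) at 10 ng/ml, with dichloroacetate (DCA) at 20 mM, or with both agents. FGF2 can turn embryonic chick RPE into neural retina, and DCA inhibits the pyruvate dehydrogenase kinases and so favours mitochondrial use of pyruvate. Each of the 8 groups had 3 replicates of 3 pooled explants, polyadenylated RNA was sequenced from all 24 libraries, and the labels name no genetic change in any group.

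WNT proteins are lipid-carrying secreted ligands. Through a Frizzled receptor and LRP5 or LRP6 they stop the breakdown of beta-catenin (CTNNB1), which then joins TCF and LEF factors at target genes such as AXIN2, while other WNTs act through ROR receptors and cell polarity routes without beta-catenin. In the vertebrate eye, beta-catenin signalling is needed to keep RPE identity, and WNT2B marks the rim of the optic cup and its pigmented layer in the chick.

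Levels below are normalized counts, that is, reads divided by the authors' size factor of the library, given as the values of replicates 1, 2 and 3 or as mean ± SD (n = 3). Changes are log2 fold changes ± SE of log2(normalized count + 1) from limma, and a gene counts as higher or lower where the Benjamini-Hochberg adjusted p over all 15001 tested genes is under 0.05. Libraries held 32818162 to 72724381 reads in genes. Control explants had all 14 RPE markers, with summed levels of 218406 to 259166 at 24 h and 276499 to 299303 at 48 h, but also markers of other cells: all 16 for periocular mesenchyme, 11 of 14 for blood and macrophages and 11 of 12 for endothelium were tested. The summed mesenchyme level at 24 h was 157063 to 169713 in control, 198762 to 229845 with DCA, 86304 to 114195 with FGF2 and 144494 to 211216 with both agents. At 48 h it was 330896 to 391522 in control, 234291 to 338130.0 with DCA, 64821 to 75805 with FGF2 and 164922 to 191530.0 with both agents, and TCF21 was at 0 in all 3 FGF2 libraries of 48 h. Such sums weigh the most abundant markers most. From 24 to 48 h in control the median log2 fold change of the 16 markers was 0.073, with 5 higher and 2 lower. With DCA alone at 24 h it was 0.195, with 1 higher and 0 lower.

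Of the 57 members, 48 had a mean of at least 10 normalized counts over the 24 libraries and were tested. The other 9 were WNT2, WNT3, WNT3A, WNT7B, WNT8A, WNT8B, WNT9B, WNT11B and LGR6, none of which reached more than 38 reads in a library. SFRP5, WNT10A and WNT6 passed although at least 1 group mean was under 10. After 24 h of FGF2, 11 of the 48 members rose (22.9%, against 15.5% of all genes tested) and 14 fell (29.2%, against 14.3%). At 48 h 12 rose (25%, against 26.9%) and 23 fell (47.9%, against 27.7%), and the median member was at -0.48 on the log2 scale beside -0.02 for all genes. DCA alone for 24 h raised 6 (12.5%, against 10.6%) and lowered 4 (8.33%, against 9.48%), shares close to the background. The total of 10 fell to 6 without control replicate 2, DCA replicate 1 or DCA replicate 3. After 48 h of DCA 12 were higher (25%, against 16.9%) and 7 lower (14.6%, against 17.1%). When DCA was added to FGF2, 18 stood above FGF2 alone at 24 h (37.5%, against 18.1%) and 7 below (14.6%, against 17.8%), the latter 4 without replicate 2 of both agents. At 48 h 25 were above (52.1%, against 25.4%) and 8 below (16.7%, against 27.4%), with a median of 0.53 beside -0.04 for all genes.

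**Figure D1:**
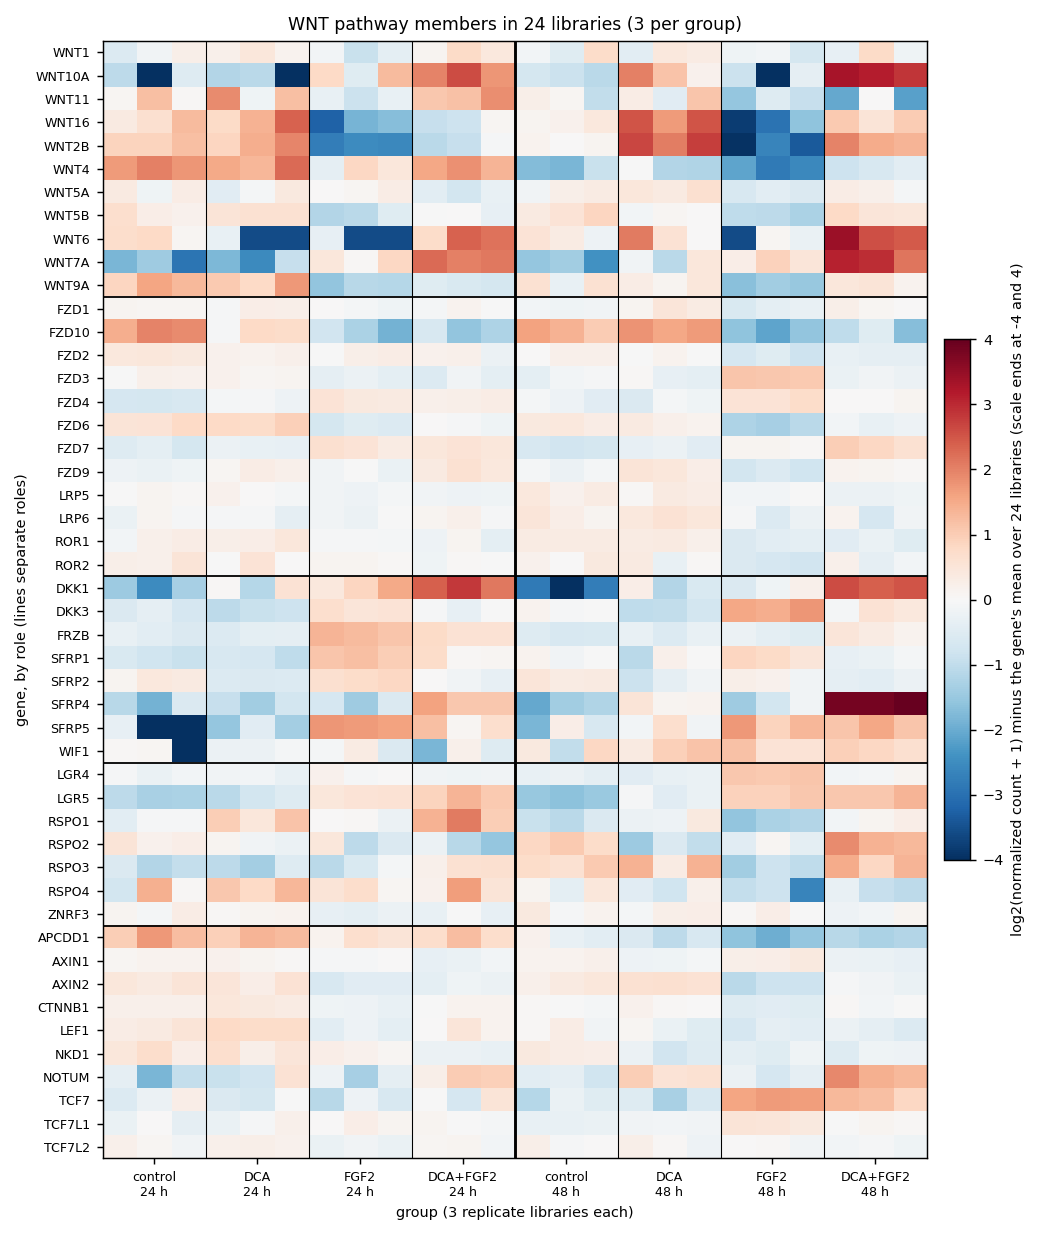
Heat map of the 48 tested members (rows, by role) in the 24 libraries (columns, 3 per group), as log2(normalized count + 1) minus the gene's own mean. Red is above and blue below that mean. WNT2B and WNT16 are blue in all 6 FGF2 libraries and red in all 3 libraries of DCA alone at 48 h, and SFRP4 is darkest red in the 3 libraries of both agents at 48 h.

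FGF2 lowered more than it raised among the tested WNT ligands, and DCA raised more than it lowered except alone at 24 h. Of 11 tested ligands, 6 fell (54.5%, against 14.3% of all genes) and 1 rose (9.09%, against 15.5%) at 24 h of FGF2. At 48 h 6 fell (54.5%, against 27.7%) and 1 rose (9.09%, against 26.9%). DCA alone raised 0 (0%, against 10.6%) and lowered 1 (9.09%, against 9.48%) at 24 h. That 1 was WNT6, at 8.67, 0 and 0 normalized counts with DCA, and WNT6 was also 1 of the 6 that fell at 24 h of FGF2. Neither WNT6 call was made by edgeR or DESeq2 on the recovered reads. It raised 3 (27.3%, against 16.9%) and lowered 1 (9.09%, against 17.1%) at 48 h. With DCA on top of FGF2, 8 of the 11 stood above FGF2 alone (72.7%, against 18.1%) and 1 below (9.09%, against 17.8%) at 24 h. At 48 h 9 were above (81.8%, against 25.4%) and 0 below (0%, against 27.4%). In bulk tissue, fewer cells of a type and less RNA per cell cannot be told apart. Mesenchyme markers went the same way with FGF2, 13 of 16 lower and 0 higher at 24 h and 16 lower at 48 h. With DCA added to FGF2 they did so too, 11 and 15 higher. With DCA alone 1 marker was higher and 0 lower at 24 h, and 0 were higher and 4 lower at 48 h. The median log2 fold change of these markers with DCA alone was 0.195 at 24 h and -0.241 at 48 h. For the ligands it was 0.211 and 0.681. The part of the mesenchyme markers in the ligand changes was not tested.

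WNT2B (ENSGALG00000034196), which signals through beta-catenin, stood at 2458, 2458 and 3041 normalized counts in control at 24 h and at 195, 231 and 219.8 with FGF2. After 48 h the values were 1454, 1344 and 1411 in control and 84.4, 211 and 128 with FGF2. Every FGF2 library was below every control library, with a log2 fold change of -3.61 ± 0.30, adjusted p = 7.01e-09 at 24 h and -3.40 ± 0.30, adjusted p = 3.35e-09 at 48 h. DCA alone gave 2419, 3654 and 5074 at 24 h, a range that reaches into the control values (0.43 ± 0.30, adjusted p = 0.343). At 48 h DCA alone gave 8357, 5452 and 9017, 5.42 times the control mean (2.41 ± 0.30, adjusted p = 3.48e-06). Explants with both agents had 626, 689.8 and 1287 at 24 h and 5238, 3717 and 3363 at 48 h. At 48 h all 3 of these libraries were above both the FGF2 and the control libraries, and the difference from FGF2 alone was 4.93 ± 0.30, adjusted p = 2.28e-11, against 1.93 ± 0.30, adjusted p = 3.65e-05 at 24 h. With DCA alone at 48 h, the mesenchyme list had 4 lower and 0 higher of 16, and the RPE list 10 lower and 1 higher of 14. The blood list had 9 lower and 1 higher of 11, and the endothelial list 8 lower and 0 higher of 11. The progenitor list had 6 lower and 2 higher of 12. The list of neural crest, melanocytes and muscle had 2 lower and 2 higher of 12, and the lens and surface ectoderm list 1 lower and 2 higher of 8. Over all genes 17.1% were lower and 16.9% higher. The RPE sum was 276499 to 299303 in control and 106292 to 203051 with DCA. The lens and surface ectoderm sum was 782 to 1000.0 in control and 1286 to 1595 with DCA. The part of these markers in the DCA values at 48 h was not tested.

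WNT16 (ENSGALG00000028069), a ligand best known from bone and joint, followed a like course. It measured 128, 132 and 159 in control and 7.67, 14.3 and 38.5 with FGF2 at 48 h (-3.01 ± 0.49, adjusted p = 2.06e-05). With DCA alone it was at 683, 388 and 678 (2.01 ± 0.49, adjusted p = 0.00315), and with both agents at 248, 171 and 239.7 (3.65 ± 0.49, adjusted p = 2.08e-06 against FGF2). None of these 4 groups overlapped, and control and both agents lay closest, at up to 159 and from 171. At 24 h the levels were 152, 185 and 289 in control and 11.7, 31.8 and 35.6 with FGF2 (-3.02 ± 0.49, adjusted p = 5.63e-05), and 61.6, 66.8 and 126 with both agents, a difference from FGF2 of 1.71 ± 0.49, adjusted p = 0.00929 that no longer passed without DCA-with-FGF2 replicate 3 at adjusted p = 0.0518 or FGF2 replicate 1 at adjusted p = 0.0729.

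WNT9A (ENSGALG00000005401), a ligand of developing joints and limbs, was at 238, 393 and 321 in control and 42.7, 60.1 and 58.9 with FGF2 at 24 h (-2.52 ± 0.27, adjusted p = 2.50e-07). At 48 h control had 197, 107 and 201 and FGF2 40.5, 48.7 and 44.5 (-1.84 ± 0.27, adjusted p = 4.53e-06). FGF2 libraries lay below all controls at both times. DCA alone left WNT9A at 159, 141 and 179 at 48 h, within the control range (-0.02 ± 0.27, adjusted p = 0.958), while with both agents it was at 178, 185 and 142 (1.89 ± 0.27, adjusted p = 3.79e-06 against FGF2).

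WNT5B (ENSGALG00000012998), a relative of WNT5A that mostly acts without beta-catenin, had 1656, 1849 and 2324 in control and 631, 623 and 528 with FGF2 at 48 h (-1.70 ± 0.16, adjusted p = 1.39e-08), and the same direction at 24 h (-1.28 ± 0.16, adjusted p = 3.23e-06). DCA had opposite signs in the 2 settings at 48 h. Alone it gave 1198, 1343 and 1305, below all controls (-0.59 ± 0.16, adjusted p = 0.00817, lost without control replicate 3 at adjusted p = 0.0596). On top of FGF2 it gave 2233, 1781 and 1755, above all libraries of FGF2 alone (1.69 ± 0.16, adjusted p = 2.15e-08). WNT5A (ENSGALG00000034168), the main ROR ligand, fell with FGF2 at 48 h to 583, 667 and 601 from 823, 1059 and 1136 (-0.69 ± 0.18, adjusted p = 0.00271), and did not pass at 24 h (-0.03 ± 0.18, adjusted p = 0.92). The difference between the 2 times did not pass either (-0.66 ± 0.26, adjusted p = 0.057).

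WNT4 (ENSGALG00000041708) dropped with time in culture. Control libraries had 886, 1106 and 929 at 24 h and 81.9, 75.5 and 146 at 48 h (-3.31 ± 0.33, adjusted p = 9.71e-07). FGF2 took it to 210.2, 489 and 369 at 24 h (-1.53 ± 0.33, adjusted p = 0.00129), and with both agents it was at 790.3, 966 and 704 (1.27 ± 0.33, adjusted p = 0.00527 against FGF2). At 48 h the FGF2 difference was -1.02 ± 0.33, adjusted p = 0.0133, a call lost without control replicate 3 at adjusted p = 0.0956 or FGF2 replicate 2 at adjusted p = 0.0641.

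WNT7A (ENSGALG00000005123), a ligand known from limb and brain, rose with FGF2, alone among the 11 tested ligands in passing upward at either time. Levels went from 19.2, 25.9 and 8.38 to 97.1, 73.0 and 126 at 24 h (2.50 ± 0.46, adjusted p = 0.000208) and from 23.2, 26.3 and 12.3 to 85.5, 136 and 99.5 at 48 h (2.36 ± 0.46, adjusted p = 0.000149). Both agents together gave 340.5, 289 and 306 at 24 h and 606, 551 and 314 at 48 h, above every library of the other groups at the same time (1.68 ± 0.46, adjusted p = 0.00654 and 2.16 ± 0.46, adjusted p = 0.000417 against FGF2). DCA alone at 48 h gave 63.9, 32.6 and 97.2 (1.54 ± 0.46, adjusted p = 0.0125, lost without control replicate 3 at adjusted p = 0.0728 or DCA replicate 3 at adjusted p = 0.0753).

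WNT10A (ENSGALG00000011355) and WNT6 (ENSGALG00000011358), ligands of surface ectoderm and skin appendages, are next to each other in the gene order of the RefSeq annotation (assembly GRCg7b). Both were highest with both agents. WNT10A had 11.1, 9.85 and 8.19 in control, 78.4, 41.6 and 21.0 with DCA and 9.86, 0 and 14.3 with FGF2 at 48 h, and 190.1, 169.7 and 139 with both (4.92 ± 1.00, adjusted p = 0.000293 against FGF2). WNT6 had 16.2, 14.0 and 9.21 in control, 49.3, 16.9 and 11.0 with DCA, 0, 11.5 and 8.79 with FGF2 and 127, 70.2 and 63.7 with both (4.08 ± 1.02, adjusted p = 0.00204). At 24 h WNT6 was at 0 in 2 of 3 FGF2 libraries and 2 of 3 DCA libraries, so its fitted changes there depend on the pseudocount: FGF2 against control was -3.01 ± 1.02, adjusted p = 0.03, lost without any 1 of 4 of the 6 libraries, at adjusted p = 0.0723 to 0.119, and DCA against control -3.00 ± 1.02, adjusted p = 0.0424, lost without any 1 of 5 of the 6 libraries, at adjusted p = 0.0681 to 0.154. Neither of these 24 h calls was made by edgeR or DESeq2 on the recovered reads. Lens and surface ectoderm markers summed to 782 to 1000.0 in control, 1286 to 1595 with DCA, 879 to 1077 with FGF2 and 1921 to 2116 with both at 48 h. Of the 8 tested, 3 rose and 0 fell when DCA was added to FGF2 at 48 h, where 25.4% of all genes rose and 27.4% fell. The rises were led by ASL1, the delta-crystallin of bird lens (3.81 ± 0.37), and the epidermal factor TP63 (1.90 ± 0.28). The list did not rise as a whole, with a median log2 fold change of -0.09 over the 8. The part of these markers in the WNT10A, WNT6 and WNT7A values was not tested. The other 2 neighbouring pairs were WNT3A with WNT9A and WNT9B with WNT3, of which WNT9A alone was tested. WNT1 and WNT11 did not pass in any of the 4 comparisons with control. Both were higher with DCA on top of FGF2 at 24 h, WNT11 by 1.85 ± 0.60, adjusted p = 0.0191, lost without DCA-with-FGF2 replicate 3 at adjusted p = 0.0732 or FGF2 replicate 2 at adjusted p = 0.0683, and WNT1 by 0.89 ± 0.35, adjusted p = 0.049, lost without any 1 of 4 of the 6 libraries, at adjusted p = 0.0823 to 0.19.

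**Figure D2:**
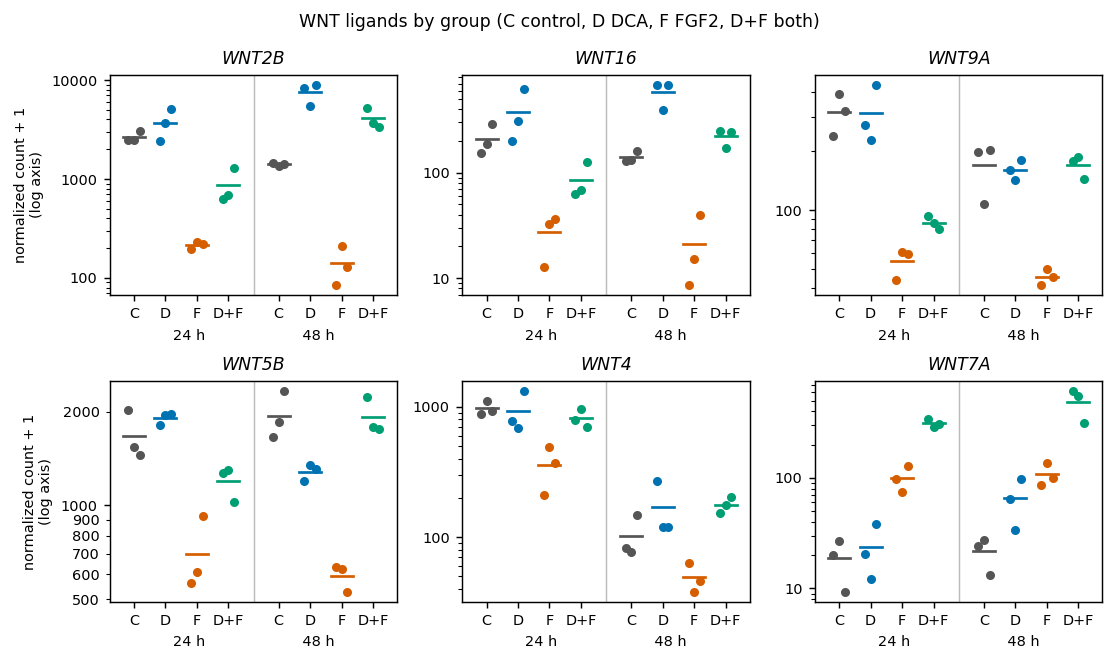
WNT2B, WNT16, WNT9A, WNT5B, WNT4 and WNT7A by group at 24 and 48 h. Points are the 3 libraries of a group and bars their mean, as normalized count + 1 on a log axis. WNT2B, WNT16, WNT9A and WNT5B are lowest with FGF2 at 48 h, and WNT7A is highest with both agents.

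The receptors went both ways under FGF2, and the share that rose was near that of all genes. All 12 were tested. At 24 h 2 rose (16.7%, against 15.5% of all genes) and 3 fell (25%, against 14.3%). At 48 h 3 rose (25%, against 26.9%) and 9 fell (75%, against 27.7%), so that all 12 passed. FZD4, FZD7 and FZD3 were higher at 48 h, and FZD6, FZD10, FZD2, FZD9, FZD1, LRP5, LRP6, ROR1 and ROR2 were lower. Among these falls were FZD1 (-0.29 ± 0.09, adjusted p = 0.0123, lost without FGF2 replicate 1 at adjusted p = 0.0906), LRP5 (-0.39 ± 0.08, adjusted p = 0.000341) and LRP6 (-0.57 ± 0.17, adjusted p = 0.00688, lost without FGF2 replicate 2 at adjusted p = 0.0523). Mesenchyme and endothelial markers fell in the same comparisons, 13 of 16 and 8 of 11 at 24 h and all at 48 h, and their part in the receptor values was not tested.

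FZD4 (ENSGALG00000017242), which also binds Norrin and serves retinal vessels, went from 2474, 2423 and 2549.8 in control to 5864, 5275 and 5140.2 with FGF2 at 24 h (1.13 ± 0.10, adjusted p = 2.51e-08), and from 3757, 3452 and 2881 to 5871, 5757 and 6579 at 48 h (0.86 ± 0.10, adjusted p = 2.75e-07). DCA alone raised it at 24 h, to 3798, 3867 and 3426 (0.57 ± 0.10, adjusted p = 0.00041). With both agents it stood at 4563, 4653 and 4855 at 24 h and 4012, 4036 and 4262 at 48 h. At both times these libraries lay below all libraries of FGF2 alone. The difference passed at 48 h (-0.56 ± 0.10, adjusted p = 7.41e-05) and not at 24 h.

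FZD7 (ENSGALG00000034973), a beta-catenin receptor of progenitor cells, rose from 2901, 3133 and 2516 to 6449.8, 6003 and 5153 at 24 h (1.04 ± 0.09, adjusted p = 1.64e-08) and from 2628, 2445 and 2517 to 4417, 4443 and 4302 at 48 h (0.79 ± 0.09, adjusted p = 1.76e-07). At 48 h both agents together gave 8195, 7337 and 6317, above every other 48 h library (0.72 ± 0.09, adjusted p = 8.30e-07 against FGF2). FZD3 (ENSGALG00000042308), a receptor of axon guidance and cell polarity, changed sign with time. It was lower with FGF2 at 24 h, 1858, 2021 and 1805 against 2333, 2704 and 2659 in control (-0.44 ± 0.11, adjusted p = 0.00434). It was higher at 48 h, 5124, 4964 and 4924 against 1805, 2211 and 2292 (1.26 ± 0.11, adjusted p = 3.60e-09), and the effects at 48 and 24 h differed by 1.69 ± 0.16, adjusted p = 1.37e-07. With both agents at 48 h FZD3 was at 1953, 2149 and 2032, in the range of control (-1.29 ± 0.11, adjusted p = 3.45e-09 against FGF2).

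FZD6 (ENSGALG00000030626), another polarity receptor, fell from 4746, 4842 and 5701 to 2029, 2347 and 2259 at 24 h (-1.20 ± 0.09, adjusted p = 8.95e-10) and from 4352, 4419.8 and 4055 to 1407, 1311 and 1546 at 48 h (-1.59 ± 0.09, adjusted p = 2.77e-12). With both agents it lay between FGF2 and control in every library, at 3304, 3211 and 2939 and at 3062, 2677 and 2829 (0.51 ± 0.09, adjusted p = 9.24e-05 and 1.01 ± 0.09, adjusted p = 3.31e-09 against FGF2). FZD10 (ENSGALG00000042003) had the steepest fitted falls of the receptors, from 191, 276 and 263 to 40.5, 28.3 and 18.1 at 24 h (-3.08 ± 0.35, adjusted p = 7.49e-07) and from 213, 186 and 142 to 21.9, 15.3 and 22.5 at 48 h (-3.12 ± 0.35, adjusted p = 1.47e-07). Unlike FZD6 it had no called difference between both agents and FGF2, with 34.1, 49.1 and 20.5 at 48 h (0.70 ± 0.35, adjusted p = 0.0995). DCA alone lowered FZD10 at 24 h (-1.28 ± 0.35, adjusted p = 0.013, lost without control replicate 2 at adjusted p = 0.0514 or DCA replicate 1 at adjusted p = 0.0828) and not at 48 h (0.34 ± 0.35, adjusted p = 0.49). FZD9 rose with DCA at both times, by 0.41 ± 0.09, adjusted p = 0.00337 at 24 h and 0.54 ± 0.09, adjusted p = 0.000134 at 48 h against control, and by 0.60 ± 0.09, adjusted p = 3.54e-05 and 0.79 ± 0.09, adjusted p = 3.03e-07 against FGF2.

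More secreted antagonists rose than fell with FGF2. Of 8 tested, 6 rose (75%, against 15.5% of all genes) and 0 fell (0%, against 14.3%) at 24 h. At 48 h 4 rose (50%, against 26.9%) and 0 fell (0%, against 27.7%). Adding DCA to FGF2 raised 2 (25%, against 18.1%) and lowered 4 (50%, against 17.8%) at 24 h. At 48 h it raised 3 (37.5%, against 25.4%) and lowered 3 (37.5%, against 27.4%). Neural retina progenitor markers also rose with FGF2, 9 of 12 with 1 lower at 24 h and 12 at 48 h, and 5 and 10 of them were lower with DCA added, with 2 and 0 higher. Markers of neural crest, melanocytes and muscle were 6 higher and 2 lower of 12 with FGF2 at 24 h, and 3 higher and 7 lower at 48 h. Their summed level was 11269 to 13207 in control and 21239 to 26510.0 with FGF2 at 24 h, and 12162 to 13216 and 5379 to 7592 at 48 h. The part of both lists in the antagonist values was not tested.

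DKK1 (ENSGALG00000003814), which blocks LRP5 and LRP6 and is itself a beta-catenin target, rose with each agent. It was at 245, 118 and 267 in control, 912, 1218 and 1938 with FGF2, 699, 304 and 1015 with DCA and 3561, 4800.3 and 2932 with both at 24 h. At 48 h control had 94.0, 36.1 and 99.3, FGF2 457, 604 and 774, DCA 808, 301 and 447 and both agents 4090.2, 3588 and 3868. All libraries with both agents exceeded all others at both times. FGF2 against control gave 2.70 ± 0.44, adjusted p = 5.63e-05 at 24 h and 3.08 ± 0.44, adjusted p = 3.65e-06 at 48 h. DCA against control gave 2.76 ± 0.44, adjusted p = 5.93e-05 at 48 h, and 1.59 ± 0.44, adjusted p = 0.013 at 24 h, which was lost without control replicate 2 at adjusted p = 0.0808, DCA replicate 1 at adjusted p = 0.0517 or DCA replicate 3 at adjusted p = 0.083. On top of FGF2 the DCA effect was 2.68 ± 0.44, adjusted p = 2.44e-05 at 48 h and 1.51 ± 0.44, adjusted p = 0.01 at 24 h, the latter lost without FGF2 replicate 1 at adjusted p = 0.0571. The difference between the DCA effects with and without FGF2 was -0.08 ± 0.62, adjusted p = 0.971 at 24 h and -0.07 ± 0.62, adjusted p = 0.95 at 48 h.

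SFRP4 (ENSGALG00000031997), one of the soluble Frizzled-like WNT binders, did not pass with FGF2 (0.77 ± 0.35, adjusted p = 0.0655 at 48 h). DCA alone took it from 25.3, 40.2 and 46.1 to 151, 115 and 118 at 48 h (1.79 ± 0.35, adjusted p = 0.000465). With both agents it reached 329, 225 and 225 at 24 h and 1517, 1518 and 1732 at 48 h, 23.9 times the mean of FGF2 alone at 48 h (4.65 ± 0.35, adjusted p = 5.06e-10). At 48 h the DCA effect was larger with FGF2 than without by 2.86 ± 0.49, adjusted p = 0.000165.

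SFRP1 (ENSGALG00000003473), the member of that family known from the optic cup, rose from 9762, 8664 and 8126 to 32730.2, 34823 and 29446 at 24 h of FGF2 (1.87 ± 0.22, adjusted p = 1.47e-06). The 48 h values were 16695, 13548 and 14759 in control and 27133, 25438 and 20999.8 with FGF2 (0.71 ± 0.22, adjusted p = 0.0108). Both agents together gave 24857, 15429 and 15946 and 11954, 12458 and 14401, below every library of FGF2 alone at the same time (-0.82 ± 0.22, adjusted p = 0.00702 and -0.92 ± 0.22, adjusted p = 0.0016). FRZB (ENSGALG00000002763), a further WNT binder, rose at 24 h of FGF2 from 2124, 1950.3 and 1754 to 6797, 6262 and 5633 (1.68 ± 0.10, adjusted p = 6.03e-11). At 48 h it was at 1825, 1669 and 1719 in control and 2249, 2005 and 1866 with FGF2 (0.23 ± 0.10, adjusted p = 0.0605), and the effect had shrunk by the test of the 2 times (-1.45 ± 0.14, adjusted p = 2.67e-07).

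DKK3 (ENSGALG00000005551), a DKK relative that does not block LRP6, rose from 777, 902 and 731 to 1833, 1621 and 1679 at 24 h (1.09 ± 0.14, adjusted p = 2.51e-06) and from 1278, 1105 and 1149 to 3367, 3186 and 3915 at 48 h (1.56 ± 0.14, adjusted p = 3.53e-09). DCA moved it down, to 576, 585 and 686 alone (-0.94 ± 0.14, adjusted p = 2.49e-05) and to 1096, 1740.0 and 1532 with FGF2 at 48 h (-1.28 ± 0.14, adjusted p = 9.00e-08 against FGF2). At 24 h the call for DCA alone (-0.39 ± 0.14, adjusted p = 0.0461) was lost without any 1 of 5 of the 6 libraries, at adjusted p = 0.054 to 0.181. SFRP2 (ENSGALG00000009241), a retinal progenitor gene, was also lower with DCA, at 1425, 1385 and 1421 against 2261, 2790.2 and 2685 in control at 24 h (-0.86 ± 0.14, adjusted p = 0.000148) and at 1147, 1628 and 1915 against 2935, 2599.9 and 2698 at 48 h (-0.84 ± 0.14, adjusted p = 7.68e-05). Its rise with FGF2 at 24 h (0.43 ± 0.14, adjusted p = 0.0204) was lost without control replicate 1 at adjusted p = 0.104 or FGF2 replicate 3 at adjusted p = 0.0749. SFRP5 stayed under 90 normalized counts, from 19.2, 0 and 0 in control to 84.3, 81.3 and 75.2 with FGF2 at 24 h (4.90 ± 0.79, adjusted p = 5.59e-05), a fitted value that depends on the pseudocount because control libraries were at 0. Its rise with FGF2 at 48 h was weaker (2.04, adjusted p = 0.0337). That call was lost without any 1 of 4 of the 6 libraries, at adjusted p = 0.0607 to 0.162. WIF1 (ENSGALG00000039209), the WNT inhibitory factor, did not exceed 47.1 normalized counts in any library and did not pass in any of the 4 comparisons with control (adjusted p = 0.258 or more).

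**Figure D3:**
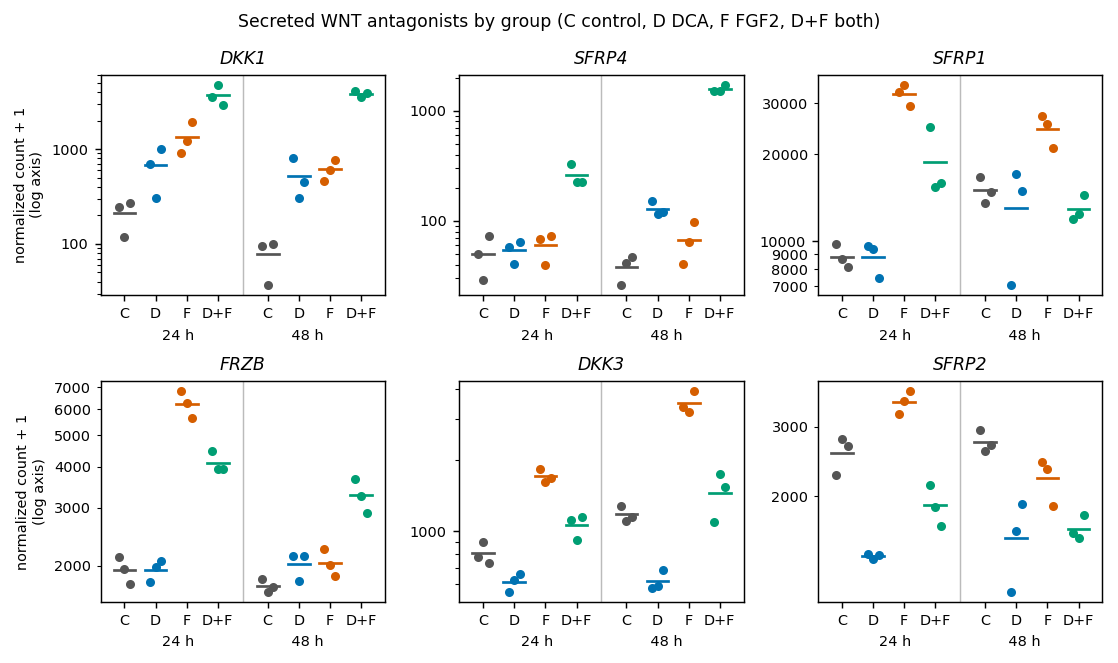
DKK1, SFRP4, SFRP1, FRZB, DKK3 and SFRP2 by group at 24 and 48 h. Points are the 3 libraries of a group and bars their mean, as normalized count + 1 on a log axis. DKK1 and SFRP4 are highest with both agents at both times, and DKK3 and SFRP1 are highest with FGF2 alone.

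R-spondins strengthen WNT signals by way of LGR4 to LGR6, which take the ligase ZNRF3 off the Frizzled receptors. Of 7 tested genes of this axis, 1 rose and 1 fell with FGF2 at 24 h. At 48 h 2 rose (28.6%, against 26.9% of all genes) and 3 fell (42.9%, against 27.7%). With DCA on top of FGF2 3 rose (42.9%, against 25.4%) and 1 fell (14.3%, against 27.4%) at 48 h. The 24 h counts are close to the shares of all genes that rose (15.5%) and fell (14.3%). LGR5 (ENSGALG00000010163), also a beta-catenin target and stem cell marker, rose with FGF2 from 866, 736 and 745 to 2432, 2603 and 2651 at 24 h (1.71 ± 0.13, adjusted p = 2.85e-09) and from 629, 576 and 639.8 to 3382, 3419 and 3805 at 48 h (2.52 ± 0.13, adjusted p = 1.89e-12). DCA alone raised it at 48 h, to 1733, 1314 and 1478 (1.28 ± 0.13, adjusted p = 3.75e-07). The smaller rise at 24 h (0.42 ± 0.13, adjusted p = 0.0276), where the DCA and control libraries overlap, was lost without any 1 of 4 of the 6 libraries, at adjusted p = 0.0711 to 0.16. With both agents LGR5 was at 3296, 4624 and 3713 and 3797, 3790.0 and 4639. The first range lies above FGF2 alone (0.58 ± 0.13, adjusted p = 0.00163), and at 48 h the difference from FGF2 did not pass (0.20 ± 0.13, adjusted p = 0.214).

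LGR4 (ENSGALG00000040834) rose at 48 h of FGF2 from 1515, 1564 and 1421 to 3866, 3779 and 3985 (1.37 ± 0.08, adjusted p = 7.27e-12), with 0.18 ± 0.08, adjusted p = 0.0898 at 24 h. Both agents together brought it to 1691, 1761 and 1986, below all FGF2 libraries (-1.10 ± 0.08, adjusted p = 2.63e-10). RSPO3 (ENSGALG00000042607) rose with time in control, from 115, 74.7 and 88.0 to 284, 261 and 355 (1.70 ± 0.30, adjusted p = 0.000519), and was at 64.6, 96.5 and 84.6 with FGF2 at 48 h (-1.87 ± 0.30, adjusted p = 2.03e-05). With both agents it was at 475, 307 and 442 (2.30 ± 0.30, adjusted p = 1.68e-06 against FGF2). RSPO2 (ENSGALG00000030030) had 143, 167 and 134 in control, 59.2, 86.0 and 61.6 with FGF2, 29.1, 54.0 and 40.1 with DCA and 302, 213 and 198 with both agents at 48 h. Each agent alone lowered it (-1.10 ± 0.35, adjusted p = 0.0113 and -1.86 ± 0.35, adjusted p = 0.000364), whereas DCA on top of FGF2 raised it (1.77 ± 0.35, adjusted p = 0.000239). The interaction of the 2 agents was 3.62 ± 0.50, adjusted p = 1.47e-05.

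RSPO1 (ENSGALG00000001946) rose with DCA at 24 h, alone (1047, 730.0 and 1181 against 393, 509 and 510.2, 1.05 ± 0.23, adjusted p = 0.00311) and on top of FGF2 (1407, 2267 and 1049 against 541, 550.0 and 449.5, 1.55 ± 0.23, adjusted p = 3.11e-05). At 48 h DCA raised it on top of FGF2 (1.43 ± 0.23, adjusted p = 2.52e-05) and alone (0.85 ± 0.23, adjusted p = 0.0081, lost without DCA replicate 3 at adjusted p = 0.056). ZNRF3 fell slightly at 24 h of FGF2 (-0.43 ± 0.15, adjusted p = 0.0324), a call lost without any 1 of 4 of the 6 libraries, at adjusted p = 0.067 to 0.15, and had -0.07 ± 0.15, adjusted p = 0.725 at 48 h. RSPO4 fell at 48 h of FGF2 (-1.53 ± 0.53, adjusted p = 0.0187), a call lost without control replicate 3 at adjusted p = 0.0711 or FGF2 replicate 3 at adjusted p = 0.148; without FGF2 replicate 3 its log2 fold change was -0.94.

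Several genes that report or carry the beta-catenin signal were lower with FGF2. Of the 10 intracellular and feedback genes, 1 rose (10%, against 15.5% of all genes) and 4 fell (40%, against 14.3%) at 24 h. At 48 h 2 rose (20%, against 26.9%) and 5 fell (50%, against 27.7%). DCA on top of FGF2 raised 4 (40%, against 25.4%) and lowered 2 (20%, against 27.4%) at 48 h. RPE markers fell with FGF2 too, 5 of 14 with 2 higher at 24 h and all 14 at 48 h, and their part in these values was not tested. AXIN2 (ENSGALG00000039200), the feedback scaffold that is a standard readout of the pathway, was at 1173, 1091 and 1222 in control and 551, 616 and 625 with FGF2 at 24 h (-0.96 ± 0.10, adjusted p = 2.07e-07). At 48 h control had 976, 1092 and 1155 and FGF2 405, 482 and 478 (-1.24 ± 0.10, adjusted p = 9.89e-10). No FGF2 library reached a control library at either time. With both agents it was at 822, 778 and 711 at 48 h, above FGF2 and below control in every library (0.76 ± 0.10, adjusted p = 1.48e-06 against FGF2), and at 653, 762 and 718 at 24 h (0.25 ± 0.10, adjusted p = 0.0541). DCA alone had 0.00 ± 0.10, adjusted p = 0.989 at 24 h and a small rise at 48 h (0.27 ± 0.10, adjusted p = 0.0381) that was lost without any 1 of 5 of the 6 libraries, at adjusted p = 0.0566 to 0.169, and also under upper quartile scaling.

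CTNNB1 (ENSGALG00000037203), beta-catenin itself, fell with FGF2 from 54397, 54481 and 54037 to 41664, 40962 and 38806 at 24 h (-0.42 ± 0.05, adjusted p = 3.60e-06) and from 48858, 46992 and 45177 to 33283, 34228 and 34029.9 at 48 h (-0.47 ± 0.05, adjusted p = 2.17e-07). Both agents gave 46854, 52350.0 and 51741 and 49069, 43944 and 47196, above FGF2 in every library (0.31 ± 0.05, adjusted p = 0.000144 and 0.46 ± 0.05, adjusted p = 3.61e-07). At 48 h these values overlap control. LEF1 (ENSGALG00000031960), a DNA-binding partner of beta-catenin and target of the pathway, went from 1905, 2015 and 2221 to 1159, 1337 and 1173 at 24 h (-0.74 ± 0.14, adjusted p = 0.000285) and from 1589.8, 1907 and 1419.9 to 974, 1220.2 and 1149 at 48 h (-0.55 ± 0.14, adjusted p = 0.00204). With both agents at 24 h it was at 1588, 2193 and 1717 (0.57 ± 0.14, adjusted p = 0.00301 against FGF2), and the 48 h values of 1316, 1223 and 1062 overlap those of FGF2 (0.11 ± 0.14, adjusted p = 0.547).

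TCF7 (ENSGALG00000006480), another such partner, moved the other way at 48 h. FGF2 raised it from 63.7, 117 and 101 to 432, 470.1 and 459 (2.30 ± 0.31, adjusted p = 2.18e-06), while at 24 h control had 98.2, 121 and 169.7 and FGF2 66.2, 124 and 91.5 (-0.47 ± 0.31, adjusted p = 0.285). TCF7L1 (ENSGALG00000032656), a family member that mostly represses, rose from 1295, 1288 and 1318 to 2263, 2241 and 2096 at 48 h (0.76 ± 0.10, adjusted p = 2.06e-06) and was lower again with both agents, at 1581, 1729 and 1651 (-0.41 ± 0.10, adjusted p = 0.00198 against FGF2). TCF7L2 did not pass in any of the 4 comparisons with control (-0.27 ± 0.11, adjusted p = 0.0595 with FGF2 at 24 h).

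Among the inhibitors that the pathway induces, APCDD1, a membrane protein that binds WNT, fell with culture time in control, from 572, 954 and 685 to 323, 237 and 217 (-1.49 ± 0.21, adjusted p = 5.11e-05). FGF2 took it lower still, to 320.1, 462 and 410.5 at 24 h (-0.87 ± 0.21, adjusted p = 0.00313) and 93.1, 73.6 and 97.3 at 48 h (-1.54 ± 0.21, adjusted p = 2.56e-06). NKD1, which acts on Dishevelled, was lower at 48 h both with FGF2 (553 ± 64.2 against 868 ± 35.5, -0.66 ± 0.14, adjusted p = 0.000491) and with DCA (498 ± 94.5, -0.82 ± 0.14, adjusted p = 0.000158). NOTUM, an enzyme that strips the lipid from WNT proteins, did not pass with FGF2 (0.11 ± 0.37, adjusted p = 0.824 at 48 h) and was highest with both agents at 48 h, 806, 578 and 519 against 182, 134 and 164 (1.97 ± 0.37, adjusted p = 0.000139). AXIN1, the constitutive scaffold, changed by -0.32 ± 0.07, adjusted p = 0.000662 with DCA and by -0.58 ± 0.07, adjusted p = 1.99e-07 with DCA on top of FGF2 at 48 h. AXIN2, LEF1, APCDD1 and the beta-catenin gene CTNNB1 thus fell with FGF2 at both times. NKD1 passed as lower at 48 h alone, and NOTUM did not pass. LGR5 and DKK1, known as targets, rose at both times, and TCF7 rose at 48 h.

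**Figure D4:**
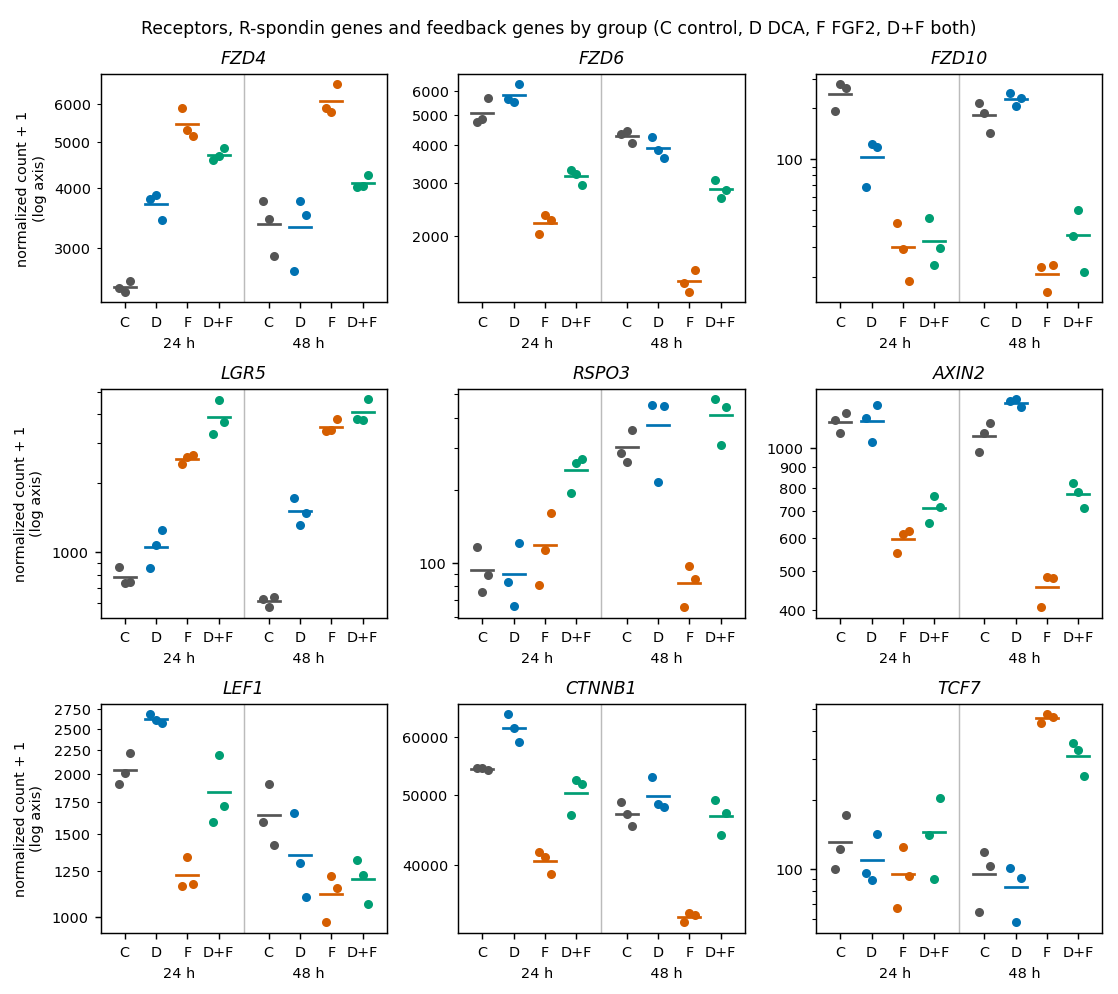
Receptor, R-spondin axis, feedback and nuclear genes by group at 24 and 48 h. Points are the 3 libraries of a group and bars their mean, as normalized count + 1 on a log axis. FZD6, AXIN2 and CTNNB1 are lowest with FGF2 and intermediate or near control with both agents at 48 h, LGR5 is high with FGF2 and with both agents, and FZD10 stays low with both agents.

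Other genes of the pathway came from lists chosen by general knowledge, with earlier results of these data known. They were read in the same fit, where with FGF2 at 48 h 26.9% of all genes were higher and 27.7% lower. With DCA on top of FGF2 these shares were 25.4% and 27.4%. Of 25 tested genes for WNT release, co-receptors and extracellular modulators, 3 rose and 14 fell with FGF2 at 48 h, and 16 rose and 2 fell when DCA was added to FGF2. With DCA alone at 48 h 6 rose and 3 fell, where 16.9% of all genes were higher and 17.1% lower. The median log2 fold change of the list was then -0.02. WLS, the carrier that brings WNT proteins to the cell surface, fell with FGF2 (-1.38 ± 0.09) and rose with DCA alone (0.54 ± 0.09) and on top of FGF2 (2.29 ± 0.09) at 48 h. The heparan sulfate proteoglycan GPC3 (-2.85 ± 0.13) and DACT1, which binds Dishevelled (-1.86 ± 0.12), fell with FGF2. IGFBP4 rose with DCA alone (1.53 ± 0.12) and on FGF2 (2.12 ± 0.12), and KREMEN1, a receptor for DKK1, rose with DCA on FGF2 (2.65 ± 0.22). SERPINF1 fell with DCA alone at 48 h (-1.04 ± 0.16). Of 27 tested cytoplasmic and nuclear transducers, 9 rose and 8 fell with FGF2 at 48 h, shares near those of all genes, and 7 rose and 13 fell with DCA added. DCA alone raised 4 and lowered 6 of the 27 at 48 h. APC2, a destruction complex scaffold of neurons, rose with FGF2 (2.39 ± 0.17) and was lower with DCA added (-2.16 ± 0.17). CTNNBIP1, an inhibitor of beta-catenin binding to TCF, did likewise (0.68 ± 0.08 and -0.78 ± 0.08), and the TCF co-repressor TLE4 rose with DCA alone (0.56 ± 0.13) and on FGF2 (1.24 ± 0.13).

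The planar polarity list gave 4 higher and 8 lower of 17 with FGF2 at 48 h and 8 higher and 3 lower with DCA added. CELSR2, a polarity cadherin, rose with FGF2 (2.67 ± 0.17) and was lower with DCA added (-2.11 ± 0.17). VANGL2, a core polarity protein, rose with FGF2 (1.71 ± 0.12), and PRICKLE1 went the other way (-2.02 ± 0.16 and 2.04 ± 0.16). Among 25 tested genes reported as WNT targets in some tissue, 6 rose and 14 fell with FGF2 at 48 h. At 48 h of FGF2 the RPE factor OTX2 fell (-1.17 ± 0.08), and cyclin D1, CCND1, rose (1.71 ± 0.11). With DCA on FGF2 12 rose and 7 fell. TNFRSF19 (1.00 ± 0.10) was among the 12, and CCND1 (-1.38 ± 0.11) and MYCN (-1.46 ± 0.13), both genes of proliferating progenitors, were among the 7. DCA alone raised 5 and lowered 4 of the 25 at 48 h, shares near the 16.9% and 17.1% of all genes. MYC (1.16 ± 0.17) and JUN (0.73 ± 0.12) were among the 5 raised, and BAMBI (-0.69 ± 0.11) was among the 4 lowered. The target and mesenchyme lists overlap, with FOXC1 and TWIST1 among the shared genes, and the target and RPE lists share MITF and OTX2.

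The DCA comparisons without and with FGF2 at 48 h share no library. Of the 12 members that DCA raised against control, 11 were also raised on top of FGF2 (91.7% of the former and 44.0% of the 25 raised there, against 64.5% and 42.9% over all genes). They were WNT2B, WNT16, WNT7A, DKK1, SFRP4, RSPO1, NOTUM, AXIN2, FZD1, FZD7 and FZD9. The call with DCA alone was lost without any 1 of 5 of the 6 libraries for AXIN2, and without any 1 of 2 for WNT7A. For NOTUM it was lost without any 1 of 2 as well, at adjusted p = 0.0551 to 0.0557, and for RSPO1 without 1. Of the 7 that DCA lowered alone, AXIN1, DKK3 and SFRP2 were also lower on FGF2 (42.9% of the 7 and 37.5% of the 8 lower there, against 56.6% and 35.4%). The other members of that group that passed on FGF2 were APCDD1, RSPO2 and WNT5B, and they were higher there. The SFRP2 call on FGF2 was lost without any 1 of 2 of the 6 libraries, at adjusted p = 0.0514 to 0.067. For APCDD1 both calls were weak: DCA alone gave -0.58 ± 0.21, adjusted p = 0.0402, lost without any 1 of 4 of the 6 libraries, at adjusted p = 0.051 to 0.195, and DCA on FGF2 0.53 ± 0.21, adjusted p = 0.0407, lost without any 1 of 5 of the 6 libraries, at adjusted p = 0.0558 to 0.16 and in edgeR and DESeq2. At 24 h 5 of the 6 members raised by DCA alone were also raised on FGF2 (83.3% of these and 27.8% of the 18, against 71.9% and 42.3%). Of these 5, the call with DCA alone was lost without any 1 of 4 of the 6 libraries for LGR5. It was lost without any 1 of 3 for DKK1 and any 1 of 2 for CTNNB1.

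**Figure D5:**
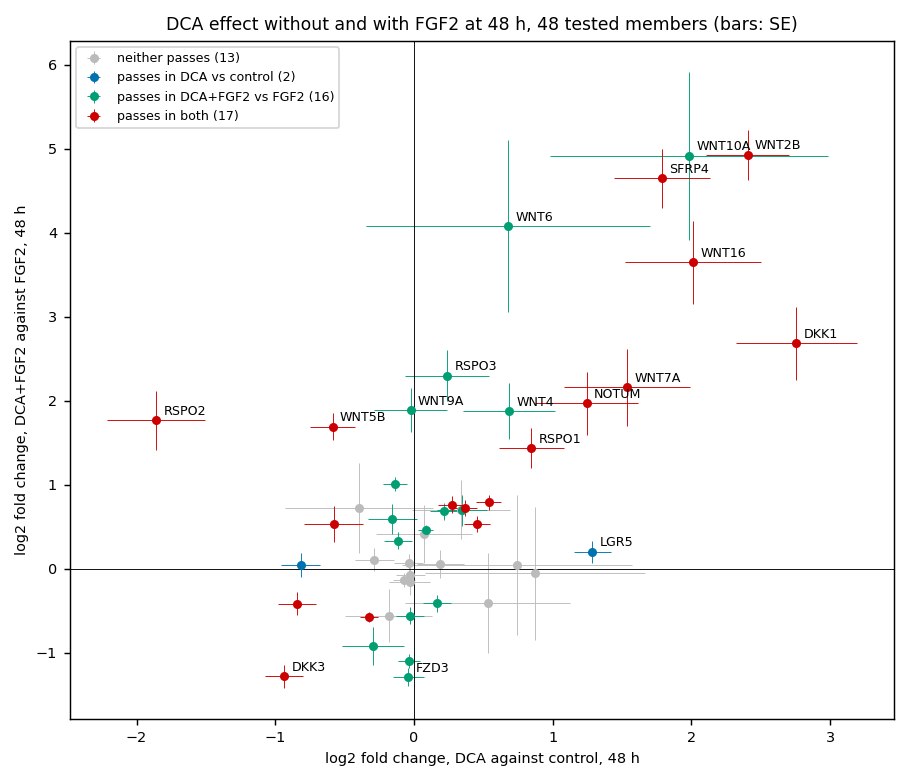
Log2 fold change of DCA against control (x) and of DCA with FGF2 against FGF2 alone (y) at 48 h for the 48 tested members, with SE bars, coloured by which comparison passed. WNT2B, WNT16, SFRP4 and DKK1 lie far to the upper right, and RSPO2 and WNT5B lie left of 0 on x and above 0 on y.

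The test of whether the DCA effect differed with and without FGF2 passed for few members at 24 h, 2 positive (4.17%, against 1.68% of all genes) and 2 negative (4.17%, against 1.24%). The 4 became 2 without control replicate 3, DCA replicate 2, FGF2 replicate 1 or 2, or DCA-with-FGF2 replicate 2. At 48 h 15 were positive (31.2%, against 15.1%) and 6 negative (12.5%, against 15.0%). The ligands WNT2B (2.52 ± 0.42, adjusted p = 0.00012), WNT5B (2.28 ± 0.23, adjusted p = 4.64e-07) and WNT9A (1.91 ± 0.38, adjusted p = 0.000584) had a more positive DCA effect in the presence of FGF2. FZD3 (-1.25 ± 0.16, adjusted p = 4.83e-06), LGR4 (-1.06 ± 0.11, adjusted p = 7.09e-07) and LGR5 (-1.08 ± 0.19, adjusted p = 0.000168) had a more negative one. In the same interaction, 16 of 16 mesenchyme markers were positive and 8 of 12 progenitor markers negative.

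With time, control explants changed in 13 members, 6 higher (12.5%, against 9.69%) and 7 lower (14.6%, against 7.30%) at 48 h. The total was 6 without the 24 h control replicate 3, and 8 without the 24 h replicate 2 or the 48 h replicate 2 or 3. FGF2 explants changed in 25, 8 higher (16.7%, against 19.3%) and 17 lower (35.4%, against 18.2%). The FGF2 effect itself was more positive at 48 h than at 24 h in 6 members (12.5%, against 14.7%) and more negative in 8 (16.7%, against 15.4%), and no ligand was among them at an adjusted p under 0.05. Of the 11 members raised at 24 h of FGF2, 9 were also raised at 48 h (81.8% of these and 75.0% of the 12 at 48 h, against 65.8% and 37.8% over all genes). Of the 14 lowered at 24 h, 11 were lowered at 48 h (78.6% of these and 47.8% of the 23, against 75.6% and 39.0%), and FZD3 was the single one to pass in the opposite direction.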

How the data were processed

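Polyadenylated RNA from 100 ng of total RNA was made into directional libraries with 13 PCR cycles, per the labels' protocols. The deposited table holds read counts per gene divided by 1 size factor per library, a depth-scaled signal. The build was GRCg6a and the tools listed in the submitters' processing notes are DESeq2 (version 1.34.0), StringTie (version 2.1.4), STAR (version 2.7.5b) and Trim Galore (version 0.6.4). What counted the reads, and with which strand setting, is not given in the sources used here, so reads shared between paralogs, overlapping or antisense genes cannot be told apart. Of the values above 0, 100% lay within 0.1 of a whole read, and the libraries held 32818162 to 72724381 reads (median 37457750). Their number limits the precision of low genes; a count of 0 allows up to 3 reads. Columns of other samples numbered 0.

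Normalized counts were taken as log2(value + 1), genes with a mean of at least 10 were kept (15001), and limma 3.58.1 (R 4.3.3, trend, 1 mean for each of the 8 groups, 16 residual degrees of freedom) tested 11 comparisons with Benjamini-Hochberg adjustment within each. Fold changes of low genes on this scale depend on the pseudocount and can be smaller or larger than those of the count tests. For WNT6 in the 24 h interaction the value was 7.24, with 8.56 and 3.47 at pseudocounts of 0.5 and 8. In edgeR it was 6.55 and in DESeq2 6.57. The limma fit called 438 to 8187 genes per comparison, edgeR 4.0.16 (quasi-likelihood) on the recovered reads 406 to 8210, and DESeq2 1.42.0 818 to 8421. Alternatives were pseudocounts of 0.5 and 8, no filter or a mean of at least 50, TMM and upper quartile scaling, a fit of the compared groups alone, the replicate number as a block, both count tests and leaving out each library. The 3 replicates per group were separate cultures, each of 3 pooled explants.

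Members follow from gene symbols, 56 of 57 matched RefSeq symbols (GRCg7b, used for names and gene order), and the members and gene lists were chosen with earlier results of these data known. Named by rule were, the members of each role with the lowest adjusted p among the 4 comparisons with control (at most 4 a role, mean of at least 50), a fixed set that adds LEF1, WIF1 and SFRP2, and up to 3 genes of each other list with the smallest adjusted p in the comparison described. WNT4, WNT5A, WNT7A, WNT10A, WNT6, WNT1, WNT11, SFRP4, SFRP5, FZD1, FZD9, FZD10, LRP5, LRP6, RSPO1, RSPO4, ZNRF3, TCF7L2, APCDD1, NKD1, NOTUM and AXIN1 were chosen after their values were seen.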

Additional observations from a re-analysis of the deposited data

Results flagged for a closer look

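The results here are differences between effects, tested as such, on the log2(normalized count + 1) scale with limma. No explanation was tested for any of them.

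The DCA effect differed with and without FGF2 at 24 h in 4 members. It was more positive in the presence of FGF2 for SFRP4 (1.96) and WNT6 (7.24), and more negative for FRZB (-0.60) and FZD4 (-0.78). The SFRP4 call was lost without any 1 of 8 of the 12 libraries, at adjusted p = 0.0505 to 0.0874, and the FRZB call without any 1 of 6 of the 12 libraries, at adjusted p = 0.05 to 0.0771. The WNT6 value rests on libraries at 0 and was 3.47 with a pseudocount of 8.

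At 48 h it was more positive with FGF2 for the ligands WNT2B (2.52), WNT5B (2.28) and WNT9A (1.91) and for the R-spondins RSPO2 (3.62) and RSPO3 (2.06). The antagonists SFRP4 (2.86) and FRZB (0.46) and the receptors FZD2 (0.45), FZD6 (1.14), FZD7 (0.36) and ROR2 (0.75) were positive too. So were APCDD1 (1.11), AXIN2 (0.49), CTNNB1 (0.38) and NKD1 (0.86). The difference was negative for FZD3 (-1.25), FZD4 (-0.53), LGR4 (-1.06), LGR5 (-1.08), TCF7L1 (-0.58) and AXIN1 (-0.25). Of these 48 h calls, FZD7 was lost without any 1 of 9 of the 12 libraries, at adjusted p = 0.0537 to 0.124, AXIN1 without any 1 of 8 of the 12 libraries, at adjusted p = 0.0517 to 0.112, FZD2 without any 1 of 5 of the 12 libraries, at adjusted p = 0.0503 to 0.0764 and ROR2 without any 1 of 4 of the 12 libraries, at adjusted p = 0.0571 to 0.0825. The FRZB call at 48 h was lost without DCA 48 h replicate 2 at adjusted p = 0.0528, DCA-with-FGF2 48 h replicate 1 at adjusted p = 0.0578 or FGF2 48 h replicate 3 at adjusted p = 0.0522.

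The FGF2 effect was more positive at 48 h than at 24 h for FZD3 (1.69), LGR4 (1.19), LGR5 (0.81), TCF7 (2.77), TCF7L1 (0.42) and AXIN1 (0.27). It was more negative at 48 h for the receptors FZD2 (-0.56), FZD6 (-0.39), FZD9 (-0.64) and ROR1 (-0.61), for RSPO3 (-2.17) and for the antagonists FRZB (-1.45), SFRP1 (-1.16) and SFRP2 (-0.74). Here AXIN1 was lost without any 1 of 7 of the 12 libraries, at adjusted p = 0.0544 to 0.083, TCF7L1 without any 1 of 7 of the 12 libraries, at adjusted p = 0.0545 to 0.104 and FZD6 without control 24 h replicate 1 at adjusted p = 0.053, FGF2 24 h replicate 2 at adjusted p = 0.0536 or FGF2 48 h replicate 2 at adjusted p = 0.0569.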

How the results depend on the processing

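No member changed the direction of a called difference under any alternative run, and every total of members that passed, both directions together, stayed within 1.5 times its value under the alternatives other than leaving out a library. By direction, the 4 lower with DCA at 24 h were 2 without the filter, and the 2 positive in the 24 h interaction were 1 without the filter, with a mean of at least 50 or in a fit of the compared groups alone. Leaving out 1 library at a time gave 22 to 25 members for FGF2 at 24 h and 33 to 35 at 48 h, 6 to 9 for DCA at 24 h and 15 to 18 at 48 h, and 21 to 26 and 31 to 33 for DCA on top of FGF2. The same step gave 2 to 5 and 17 to 23 for the interaction at 24 and 48 h, 6 to 10 for control over time, 24 to 25 for FGF2 over time and 12 to 15 for the change of the FGF2 effect. Of 528 pairs of member and comparison, 224 passed, and 55 of these did not pass without at least 1 library; the cause was not tested. Among the 224, 22 did not pass in a fit of the compared groups alone, 11 without the filter, 5 in edgeR, 4 in DESeq2, 3 with upper quartile scaling and 2 with each other pseudocount. Both count tests lost WNT6 with FGF2 and with DCA at 24 h, APCDD1 with DCA on FGF2 at 48 h and SFRP5 in control over time, and SFRP5 with FGF2 at 48 h did not pass with a pseudocount of 0.5 or without the filter. Same-numbered libraries did not deviate together (correlation of deviations -0.092 to 0.097 over 84 pairs, 0 over 0.1, with the highest value at the own number in 64 of 168 cases). With the replicate block the counts were 4 to 37 and moved by -1 to 2, and 3 calls did not pass. Depth limits WNT6, WNT10A, SFRP5 and WIF1, which were at 0 in at least 1 library, and the 9 untested members. In these explants RPE cannot be told apart from the mesenchyme, endothelium and blood cells whose markers moved with the treatments.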
